A study of Bos taurus with 6 samples.

Results

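The miR-10, miR-99/100 and miR-125 family was described in milk extracellular vesicles (EVs) as 7 mature bovine miRNAs: bta-miR-10a and bta-miR-10b, the trio of bta-miR-99a-5p, bta-miR-99b and bta-miR-100, and the pair of bta-miR-125a and bta-miR-125b. Members were taken by name from the deposited count table, and they are 7 of its 276 known miRNAs and of its 779 rows, of which 503 are predicted miRNAs. EVs are small membrane particles that carry RNA between cells, and these came from the milk of 6 Holstein cows in mid lactation at 101 ± 10 days in milk, with 574 ± 36 kg body weight and 32 ± 2 kg of milk per day. The 3 control cows were fed a total mixed ration, and the 3 cows of the replacement diet were fed a ration with soybean hull and whole cotton seed in place of some of the alfalfa hay. One small RNA library was made per cow, and the cows were housed in chambers at a constant temperature. The known miRNAs received 70490, 161240 and 61156 counts in control cows 1, 2 and 3, and 176919, 96254 and 69625 counts in replacement cows 1, 2 and 3. The members received between 5407 counts in control cow 3 and 9551 counts in replacement cow 1.

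A mature miRNA guides a silencing complex to messenger RNAs, and the bases next to its 5′ end, called the seed, do most of the pairing. The family descends from an ancient miRNA of animals, and its genes lie in HOX clusters or in clusters with a let-7 gene. The miR-10 miRNAs are known for acting within the HOX clusters that pattern the body axis, the miR-99/100 miRNAs for repressing mTOR and other growth signalling, and the miR-125 miRNAs, relatives of the worm timing miRNA lin-4, for roles in blood cell formation.

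The 7 sequences are shown because the seed sets the groups compared below. Capitals mark the seed, bases 2 to 8 counted from the 5′ end, with T in place of U as in the deposited table.
bta-miR-10a: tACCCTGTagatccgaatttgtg
bta-miR-10b: tACCCTGTagaaccgaatttgtg
bta-miR-99a-5p: aACCCGTAgatccgatcttgt
bta-miR-99b: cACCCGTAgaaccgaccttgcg
bta-miR-100: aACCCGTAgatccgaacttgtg
bta-miR-125a: tCCCTGAGaccctttaacctgtg
bta-miR-125b: tCCCTGAGaccctaacttgtga

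There were 3 seeds: ACCCTGT in miR-10a and miR-10b, ACCCGTA in miR-99a-5p, miR-99b and miR-100, and CCCTGAG in miR-125a and miR-125b. In a search of all 779 rows, 0 other rows, known or predicted, carried one of these seeds at bases 2 to 8. The miR-10a and miR-10b sequences differed by the single substitution T12A, with positions counted from 1 at the 5′ end. The miR-99a-5p and miR-100 sequences shared their first 15 bases, differed by T16A, and miR-100 was 1 nt longer. The miR-99a-5p and miR-99b sequences differed by A1C, T11A, T16C and T21C, and miR-99b was 1 nt longer. The miR-125a and miR-125b sequences shared their first 13 bases. Across the seed groups, the longest run of bases shared by miR-10a and miR-100 was GTAGATCCGAA, and that shared by miR-10b and miR-99b was GTAGAACCGA. The nearest row outside the family was 7 to 9 edits away from each member. How reads that match more than 1 miRNA were counted is not given in the sources used here. The split of counts between miR-10a and miR-10b, at 1 substitution, is therefore uncertain. So is that between miR-99a-5p and miR-100, at 1 substitution and 1 nt of length.

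Of the precursor genes, 8 of 8 were found in the RefSeq annotation of ARS-UCD2.0, an assembly other than that of the authors, so names and neighbours alone are given. MIR10A lay within the span of HOXB3 beside HOXB4, and MIR10B within HOXD4. The other genes stood in 3 clusters with a let-7 gene: MIR99B with MIRLET7E and MIR125A, MIR99A with MIRLET7C and MIR125B-2, and MIR100 with MIRLET7A-2 and MIR125B-1. The mature miR-125b and let-7a-5p can come from more than 1 gene, and their counts cannot be assigned to 1 of them.

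The level of each member is given first as a share of known miRNA counts, in the order control cows 1, 2 and 3 and replacement cows 1, 2 and 3. In the miR-99/100 group, miR-99a-5p, a repressor of growth signalling, held 2.87%, 1.70% and 2.34% with the control diet and 1.40%, 2.04% and 2.39% with the replacement diet. miR-99b held 1.05%, 0.456% and 0.875%, and then 0.560%, 0.781% and 0.715%. miR-100 held 0.617%, 0.272% and 0.476%, and then 0.291%, 0.720% and 0.353%. The share of miR-99b was highest in control cow 1 and lowest in control cow 2, whereas miR-100 was highest in replacement cow 2, and the diets overlapped for all 3 miRNAs.

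In the miR-125 group, miR-125a held 2.74%, 0.940% and 2.34% with the control diet and 1.25%, 2.18% and 2.33% with the replacement diet. miR-125b held 0.797%, 0.503% and 0.829%, and then 0.535%, 0.824% and 0.998%. Both were lowest in control cow 2 and next lowest in replacement cow 1, and the diets overlapped. In the miR-10 group, miR-10b held 2.45%, 0.703% and 1.67% with the control diet and 0.908%, 1.66% and 1.80% with the replacement diet, with the same 2 cows lowest and with overlap between the diets. miR-10a held 0.637%, 0.438% and 0.306%, and then 0.461%, 0.527% and 0.649%. Here too the diets overlapped, but the lowest share was in another animal, control cow 3, where 187 counts gave a 95% Wilson interval of 0.265% to 0.353%. Wilson intervals cover counting error only, because reads amplified by PCR are not independent molecules.

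In mean share over the 6 cows the order was miR-99a-5p, miR-125a, miR-10b, miR-125b, miR-99b, miR-10a and miR-100. In 3 of the 6 neighbouring pairs the order changed between cows: miR-99a-5p was above miR-125a in 5 of 6 cows, miR-125b above miR-99b in 3 of 6 and miR-10a above miR-100 in 4 of 6. By contrast, miR-125a was above miR-10b in 6 of 6 cows, miR-10b above miR-125b in 6 of 6, and miR-99b above miR-10a in 6 of 6, the last with a lowest ratio of 1.04. Among the known miRNAs of a cow, miR-99a-5p ranked between 8 and 13, and miR-100 between 28 and 45.

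**Figure D1:**
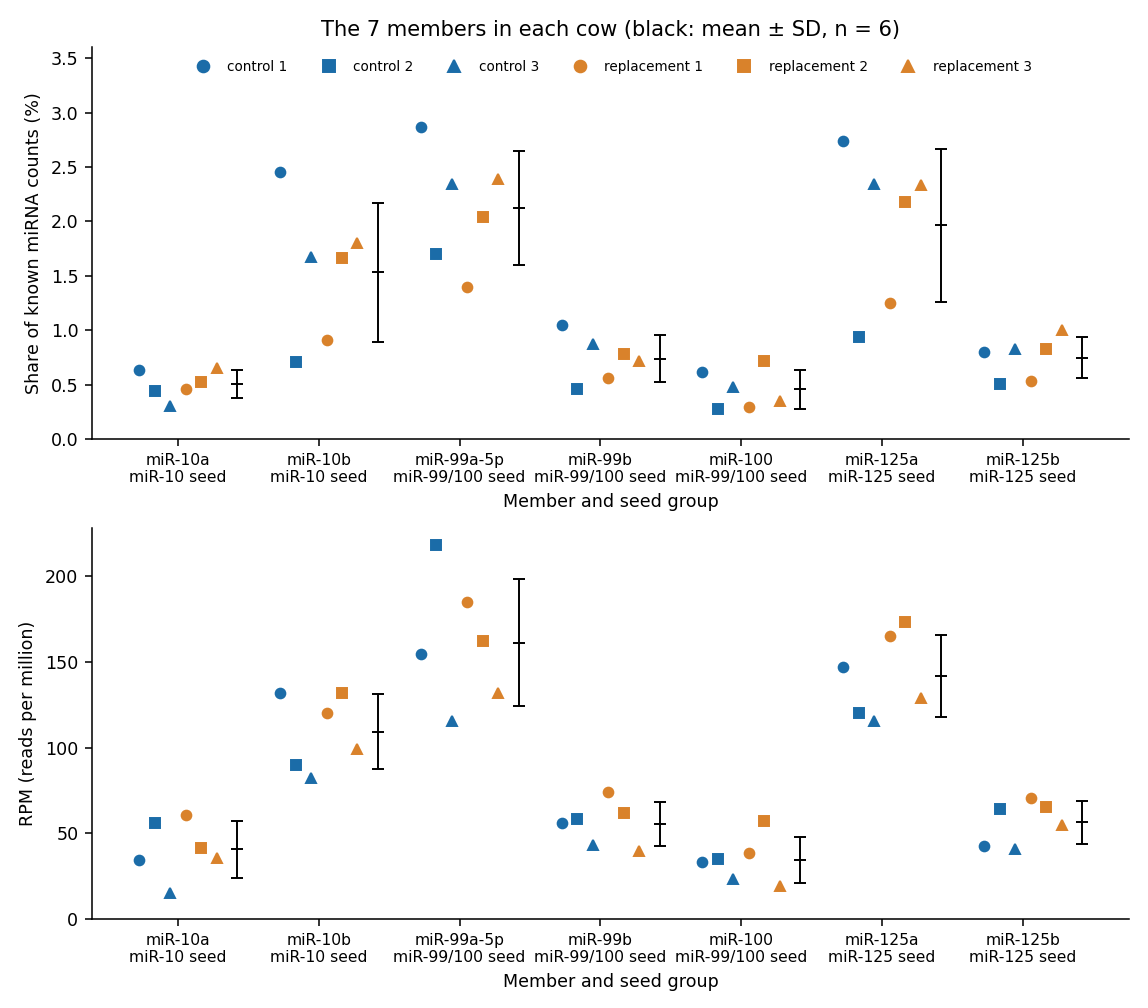
Each point is 1 cow, with the share of known miRNA counts in percent (top) and RPM (bottom) for the 7 members, and black bars give the mean ± SD of 6 cows. As a share, control cow 2 and replacement cow 1 are the lowest for the 6 members other than miR-10a, and as RPM replacement cow 1 is above the mean for all of them.

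By seed, the miR-99/100 group held 3.32% ± 0.850 (SD, n = 6) of the known counts, the miR-125 group 2.71% ± 0.875 (SD, n = 6) and the miR-10 group 2.04% ± 0.714 (SD, n = 6). The order of the 3 groups was the same in 6 of 6 cows, with a median ratio of 1.22 for miR-99/100 to miR-125 (lowest 1.04, highest 1.68) and of 1.33 for miR-125 to miR-10 (highest 1.60). In mean share the gaps between neighbouring groups were smaller than 1 SD. Within the counts of the 7 members, the miR-99/100 group took 41.7% ± 3.65 (SD, n = 6), the miR-125 group 33.3% ± 2.78 (SD, n = 6) and the miR-10 group 25.0% ± 2.08 (SD, n = 6). The cow that stood farthest from the others was control cow 2, in which the miR-99/100 group took 48.5% of the member counts, while the other 5 cows lay between 37.4% and 41.8%.

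The total of the family depended on what it was compared with. As a share of known counts, the 7 members together held 11.15%, 5.01% and 8.84% with the control diet and 5.40%, 8.74% and 9.23% with the replacement diet. The 2 low values were those of control cow 2 and replacement cow 1, the cows with the most counts on known miRNAs. The RPM values, which are counts scaled to a common total from 12130660 to 13369168 reads per cow, summed over the members to 600.3, 642.4 and 435 with the control diet and 714.4, 693.3 and 509.8 with the replacement diet. On this scale replacement cow 1 was the highest and control cow 3 the lowest. All known miRNAs together had 5383, 12813 and 4921 RPM in the control cows and 13233, 7935 and 5521 RPM in the replacement cows. The coefficient of variation of the family over the 6 cows was 29.5% as a share and 18.1% as RPM. The part of the total in the low shares of these 2 cows was not tested.

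**Figure D2:**
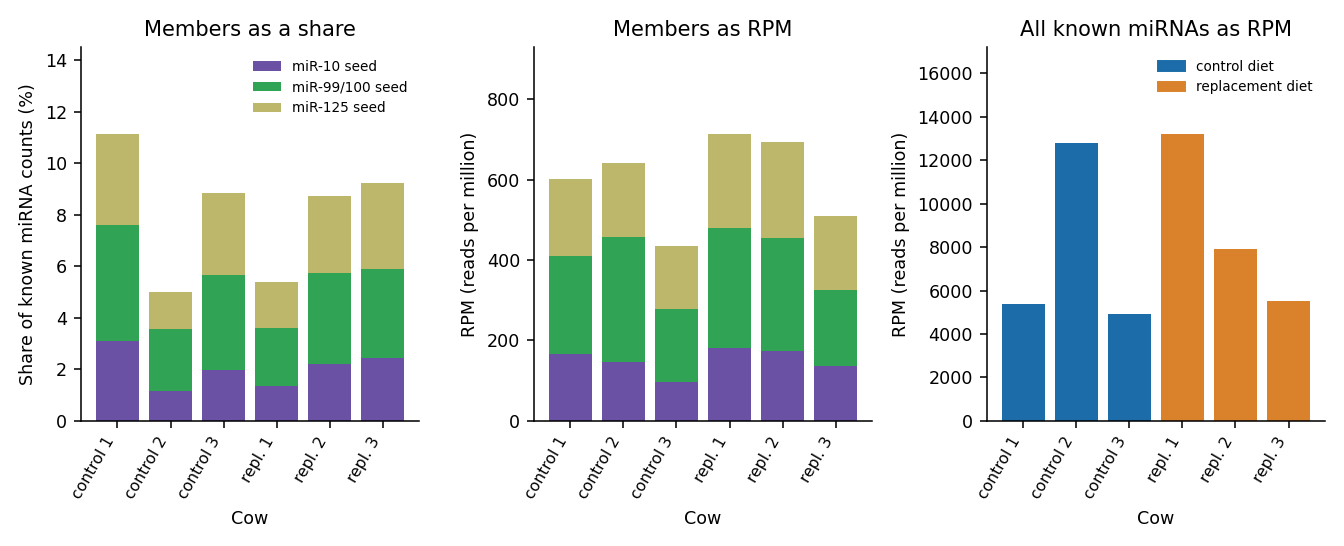
Stacked bars give the 3 seed groups in each cow as a share of known miRNA counts in percent (left) and as RPM (middle), and the right panel gives the RPM of all known miRNAs with bars coloured by diet. Control cow 2 and replacement cow 1 have the lowest member share and the highest RPM of all known miRNAs.

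As RPM, miR-125a had 147, 120.4 and 115 with the control diet and 165, 173 and 129 with the replacement diet. miR-10b had 132, 90.1 and 82.2, and then 120.1, 132 and 99.3. Neither was low in replacement cow 1 on this scale, and both were lowest in control cow 3. Their coefficients of variation, 16.9% for miR-125a and 19.8% for miR-10b, ranked 3 and 4 from the lowest among the 84 known miRNAs with 10 or more counts in every cow. The values for miR-125b, miR-99b and miR-99a-5p, 22.1%, 22.9% and 22.9%, ranked 6, 7 and 8, beside a median of 56.1% over the 84. miR-100 and miR-10a varied more, with 38.5% and 40.7% at ranks 22 and 23, also under that median. As a share of known counts the order differed: miR-125a had 35.9% and miR-10b 41.5%, at ranks 38 and 51 of the 84. miR-99a-5p had the lowest of the members with 24.8% at rank 14, and the median over the 84 was 38.7%. miR-125b, miR-10a and miR-99b had 25.6%, 25.9% and 28.9%, at ranks 15, 17 and 22, and miR-100 had 40.3% at rank 45.

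The co-variation of members over the 6 cows was computed as Pearson's r and Spearman's rho of log2 share for 21 member pairs, among all 3486 pairs of the 84 known miRNAs. The r of the member pairs was positive in 21 of 21 pairs, with a median of 0.79, beside a median of 0.012 over all pairs. In 9 of the 21 pairs, r was positive with an exact permutation p under 0.05, beside 5.51% of all pairs. This number was 1 of 21 with log2 counts scaled by TMM, beside 6.97% of all pairs, 10 with each diet centred, beside 8.2%, and 11 with all miRNAs as the total, beside 13%. With 1 cow left out it lay between 4 and 7, over 5 cows, beside 94 to 169 of all 3486 pairs. The median r of the member pairs then lay between 0.69 and 0.88. The p-values with each diet centred tend to be too small, because the permutations took no account of the diet means removed. After Benjamini-Hochberg adjustment over all 3486 pairs, 0 member pairs and 0 pairs in all were under 0.05, and the smallest adjusted p of a member pair was 0.484 (exact permutation).

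The closest pair was miR-10b and miR-125a, miRNAs of different seeds whose genes lie in different clusters. Their counts were 1727 and 1928 in control cow 1, 1134 and 1515 in control cow 2, and 1022 and 1432 in control cow 3. In the replacement cows they were 1606 and 2205, 1602 and 2100, and 1252 and 1625. The ratio of miR-125a to miR-10b was thus 1.12, 1.34 and 1.40 with the control diet and 1.37, 1.31 and 1.298 with the replacement diet, with the only value under 1.2 in control cow 1. For this pair r was 0.99 (exact permutation p = 0.0028, adjusted p = 0.484) and rho 0.94 (exact permutation p = 0.017) over 6 cows. It was 0.96 without control cow 2 and replacement cow 1, the cows farthest from the median of miR-10b, and 0.99 with each diet centred on its own mean.

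The other miR-10b pairs differed in how far they rested on those 2 cows. With miR-99b, r was 0.96 (exact permutation p = 0.0069, adjusted p = 0.484) and rho 0.83 (exact permutation p = 0.058), and r was 0.77 without the 2 cows. With miR-99a-5p, r was 0.90 (exact permutation p = 0.0097, adjusted p = 0.484) and rho 0.94 (exact permutation p = 0.017), and r was 0.91 without them. With miR-125b, r was 0.88 (exact permutation p = 0.026, adjusted p = 0.492) and rho 0.66 (exact permutation p = 0.17). Without those 2 cows r was −0.31 over the 4 cows left, but it was 0.78 without control cow 2 alone and 0.85 without replacement cow 1 alone. For miR-125a and miR-125b, which share a seed, r was 0.92 (exact permutation p = 0.032, adjusted p = 0.492) and rho 0.60 (exact permutation p = 0.24). Here r was −0.31 over the 4 cows left without the 2 cows, but 0.86 without control cow 2 alone and 0.90 without replacement cow 1 alone. With each diet centred, r was 0.97, 0.95, 0.90 and 0.93 for these 4 pairs in the order given. miR-10b and miR-100 had r = 0.79 (exact permutation p = 0.072, adjusted p = 0.556) and rho 0.60 (exact permutation p = 0.24), with r = 0.19 without the 2 cows and 0.79 with each diet centred.

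On log2 share of known counts, r of miR-10a with the other 6 members lay between 0.18 and 0.38, whereas the 15 pairs without it lay between 0.62 and 0.99. With miR-10b, the miRNA of the same seed, r was 0.38 (exact permutation p = 0.44, adjusted p = 0.810) and rho 0.60 (exact permutation p = 0.24), and r was 0.43 with each diet centred. It was 0.98 without control cow 3 and replacement cow 3, the cows farthest from the median of miR-10a. Leaving out control cow 3 alone raised the median r of the 6 miR-10a pairs from 0.30 to 0.91, beside 0.84 for the other 15. The choice of total moved it too with all 6 cows kept. On log2 RPM the miR-10a pairs had a median of 0.61 (0.46 to 0.88), beside 0.63 for the other 15 pairs, the lowest of which was 0.26. With all miRNAs as the total the median was 0.64 (0.56 to 0.92), beside 0.81 with a lowest value of 0.71, and on log2 counts scaled by TMM it was −0.072, beside 0.59. Control cow 3 also had the highest summed share of the red blood cell list, 20.1%, and the part of this in the low miR-10a was not tested.

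**Figure D3:**
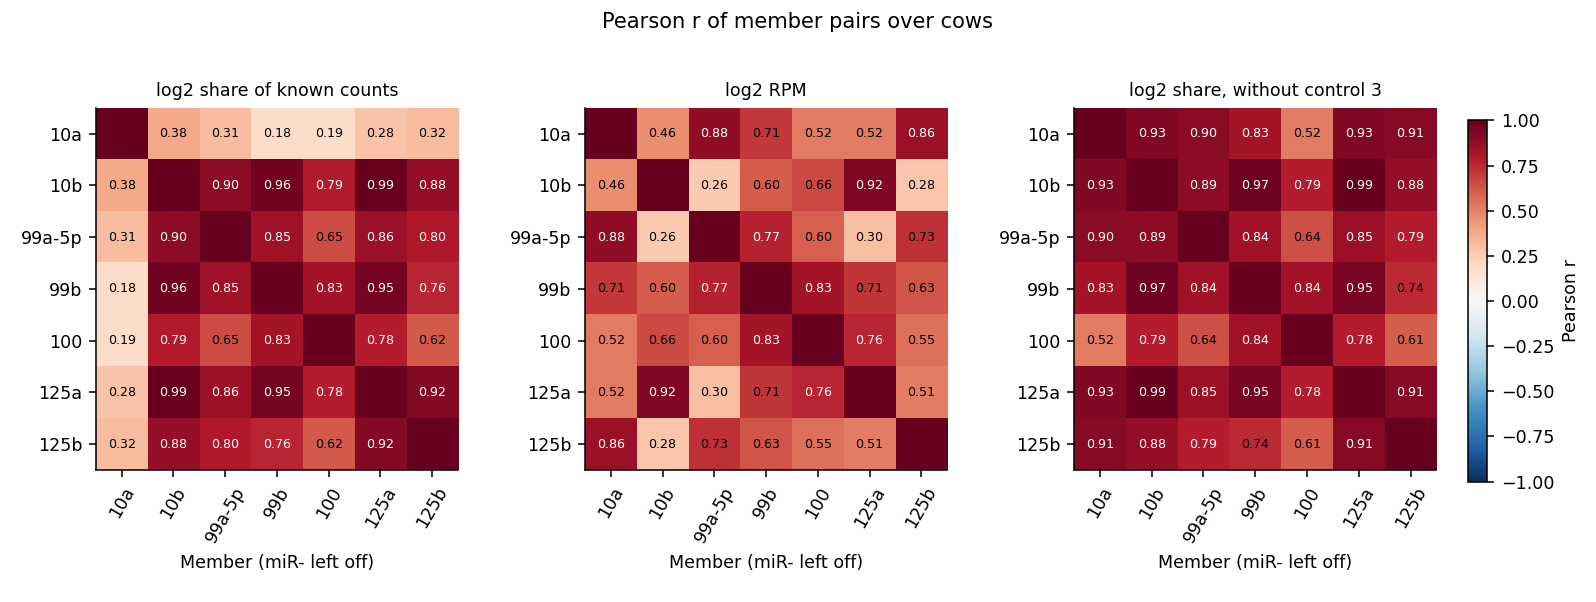
Each square gives Pearson's r of 2 members over cows, from −1 in blue to 1 in red, for log2 share in 6 cows (left), log2 RPM in 6 cows (middle) and log2 share in the 5 cows without control cow 3 (right). The row of miR-10a is pale on the left, between 0.18 and 0.38, and mostly dark on the right, and on RPM miR-10b has its lowest values with miR-99a-5p and miR-125b.

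Because a shared total can make shares move together, the pairs were also compared on log2 RPM and without the 2 cows with the most known counts, both chosen after seeing the data. On log2 RPM the median r was 0.63 over the 21 member pairs and 0.43 over all pairs, and r was positive with an exact permutation p under 0.05 in 4 of 21 pairs, beside 16.8% of all pairs. Adjusted over all 3486 pairs, 0 were under 0.05, and the smallest adjusted p of a member pair was 0.118 (exact permutation). The pair miR-10b and miR-125a had r = 0.92 on this scale. miR-10a with miR-99a-5p had r = 0.88 and with miR-125b r = 0.86, whereas miR-10b with miR-99a-5p had r = 0.26 and with miR-125b r = 0.28. Without the 2 cows, the median r of log2 share over the member pairs was 0.31 in the 4 cows left, beside −0.019 over all pairs, and 14 of 21 were positive. On log2 counts scaled by TMM, over all 6 cows, the median was 0.40, beside 0.024 over all pairs, and 16 of 21 were positive.

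A measure without any total is the spread of the ratio between 2 miRNAs, also chosen after seeing the data. The SD over cows of the log2 ratio had a median of 0.38 over the 21 member pairs and of 0.92 over all 3486 pairs. The widest member pair, miR-10a and miR-100, had an SD of 0.64. The narrowest, miR-10b and miR-125a, had 0.12, and 1 of the 3486 pairs was lower. It was followed by miR-99a-5p with miR-99b at 0.23, miR-99b with miR-125a at 0.24 and miR-99a-5p with miR-125b at 0.24. The 6 miR-10a pairs had a median of 0.58 and the other 15 of 0.32. The 84 miRNAs differ in abundance, and lower counts widen a ratio, so these values describe the pairs and are no test.

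Of the 3 precursor clusters, the one with miR-99b, let-7e and miR-125a had the highest r between its family members on log2 share over the 6 cows, a difference from the other clusters that was not tested. On log2 RPM it was 0.71 for miR-99b and miR-125a and 0.73 for miR-99a-5p and miR-125b. For miR-99b and miR-125a, r was 0.95 (exact permutation p = 0.0042, adjusted p = 0.484) and rho 0.94 (exact permutation p = 0.017), and r was 0.90 without control cows 1 and 2 and 0.97 with each diet centred. The let-7e between them was far less abundant, with 24 to 96 counts per cow and shares of 0.0766%, 0.0552% and 0.0392% with the control diet and 0.0209%, 0.0997% and 0.0388% with the replacement diet. It was highest in replacement cow 2 and lowest in replacement cow 1, whereas miR-99b was highest in control cow 1 and lowest in control cow 2. Its r was 0.41 with miR-99b (exact permutation p = 0.42, adjusted p = 0.797; rho 0.43, p = 0.42) and 0.37 with miR-125a (exact permutation p = 0.45, adjusted p = 0.815; rho 0.20, p = 0.71). Without the 2 cows farthest from the median of the first miRNA named these were 0.64 for miR-99b with let-7e and −0.037 for let-7e with miR-125a, and with each diet centred 0.38 and 0.39.

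In the cluster of miR-99a-5p, let-7c and miR-125b, let-7c held 0.309%, 0.231% and 0.286% with the control diet and 0.141%, 0.221% and 0.474% with the replacement diet. It was lowest in replacement cow 1 and highest in replacement cow 3. Its r was 0.80 with miR-99a-5p (exact permutation p = 0.047, adjusted p = 0.511; rho 0.89, p = 0.033) and 0.78 with miR-125b (exact permutation p = 0.060, adjusted p = 0.545; rho 0.60, p = 0.24). Without the 2 farthest cows these were 0.71 and 0.44, and with each diet centred 0.81 and 0.83. On TMM-scaled counts they were 0.11 and −0.079. For miR-99a-5p with miR-125b, r was 0.80 (exact permutation p = 0.071, adjusted p = 0.556; rho 0.60, p = 0.24), with 0.93 without control cow 1 and replacement cow 1 and 0.95 with each diet centred, but it was −0.40 on TMM-scaled counts and −0.15 without the 2 cows with the most known counts.

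In the cluster of miR-100, let-7a-5p and miR-125b, let-7a-5p held 2.81%, 2.45% and 3.296% with the control diet and 2.39%, 2.45% and 3.04% with the replacement diet. Its share was highest in control cow 3, and that of miR-100 in replacement cow 2. Its r was 0.20 with miR-100 (exact permutation p = 0.69, adjusted p = 0.906; rho 0.43, p = 0.42) and 0.71 with miR-125b (exact permutation p = 0.15, adjusted p = 0.625; rho 0.83, p = 0.058). miR-100 and miR-125b had r = 0.62 (exact permutation p = 0.22, adjusted p = 0.676; rho 0.49, p = 0.36). Without the 2 farthest cows these 3 values were 0.48, 0.59 and 0.43, and with each diet centred 0.20, 0.83 and 0.63. On TMM-scaled counts they were −0.32, −0.65 and 0.30, so the direction of both let-7a-5p pairs turned. Without the 2 cows with the most known counts they were −0.76, 0.31 and −0.85, so the direction of both miR-100 pairs turned. Of the miR-196 miRNAs, whose genes also lie in HOX clusters, miR-196a had 7 counts in control cow 3 and miR-196b 4 counts in replacement cow 1, and both had 0 counts in the remaining cows, where 3 counts would be a share of 0.0017% to 0.0049%.

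The 77 known miRNAs outside the family with 10 or more counts in every cow were ranked by r with the summed share of the 7 members over the 6 cows, as a measure of likeness. These are descriptions and have no p. The highest was miR-30a-5p, with r = 0.95 and rho = 0.94, followed by miR-30f (r = 0.92), miR-126-3p (0.91), let-7b (0.90) and miR-22-3p (0.87), whose rho lay between 0.77 and 0.83. The lowest was miR-361, with r = −0.89 and rho = −0.94, followed by miR-423-3p (r = −0.81), let-7f (−0.80), miR-191 (−0.78) and let-7d (−0.78), whose rho lay between −0.89 and −0.60. These 10 values depended on the total: with RPM in place of the share, all of the 5 lowest had a positive r with the family, from 0.63 for let-7f to 0.84 for miR-191. The 5 highest had 0.60 to 0.81 on RPM. miR-30a-5p kept a narrow ratio to the family, with an SD of its log2 ratio to the summed counts of 0.17, beside 0.89 for miR-191.

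The question of whether the diet changed the family was tested per miRNA on the counts. With edgeR's quasi-likelihood test and TMM normalization, 7 of 7 members were tested and 0 had a Benjamini-Hochberg adjusted p under 0.05, beside 0% of the 227 miRNAs tested. At an unadjusted p under 0.05 there were 0 members, beside 3.52% of the 227. DESeq2 called 0 of the 7 members, beside 1.79% (7) of the 390 miRNAs that it gave an adjusted p. With it 0 members had an unadjusted p under 0.05, beside 41 miRNAs in all. Those 41 were counted over every miRNA with a p, also outside the 390, so no share is given. The log2 fold change, replacement over control, was 0.25 for miR-10a (95% interval −0.74 to 1.24), −0.09 for miR-10b (−1.02 to 0.84) and −0.23 for miR-99a-5p (−0.91 to 0.45). It was −0.13 for miR-99b (−0.99 to 0.73), 0.07 for miR-100 (−1.03 to 1.16), −0.01 for miR-125a (−0.86 to 0.84) and 0.16 for miR-125b (−0.60 to 0.92). In that edgeR fit the Benjamini-Hochberg adjusted p was 0.986 for each member. The median over the members was −0.01, and that over all 227 was 0.03. The narrowest of these intervals was that of miR-99a-5p. With 3 cows per diet, a difference anywhere within the interval of a member remains compatible with its counts. The smallest difference that could be detected was not tested.

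The scaling moved the members together with all miRNAs. Scaled by the counts of all miRNAs alone, the median log2 fold change of the members was 0.64, but that of all miRNAs tested was 0.63. Scaled by the read total behind RPM, an alternative chosen after seeing the data, the medians were 0.29 and 0.21, and with the size factors of DESeq2 in edgeR 0.11 and 0.17. On these scalings 7, 6 and 5 of the 7 members were above 0, beside 75.3%, 59.0% and 58.1% of the 227, compared with 3 of 7 and 51.5% with TMM. Relative to the median of all miRNAs, 4, 5 and 3 members were above it on these scalings and 3 with TMM. With DESeq2 and with no filter, which took in other sets of miRNAs, 7 of 7 members were above it. The medians of the members and of all miRNAs with a fold change were 0.084 and −0.22 with DESeq2, and 0.052 and −0.26 with no filter. Among known miRNAs alone the median was −0.0062 with DESeq2 and −0.079 with no filter. Below that median were miR-99a-5p (−0.13) and miR-99b (−0.034) with DESeq2, and miR-99a-5p (−0.20) with no filter. As a share of all miRNA counts, known and predicted, miR-10a and miR-125b did not overlap between diets, with the replacement cows higher in 2 of 7 members, beside 9.52% of the 84 known miRNAs. On that scale 0 of 7 members were lower without overlap, beside 1.19%. As a share of known counts 0 of 7 members were higher without overlap, beside 2.38%, and 0 of 7 lower, beside 4.76%. As RPM 0 of 7 were higher, beside 1.19%, and 0 of 7 lower, beside 4.76%. Known miRNAs took 21.5%, 29.0% and 15.8% of all miRNA counts with the control diet and 42.0%, 35.2% and 25.7% with the replacement diet, with overlap between the diets.

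**Figure D4:**
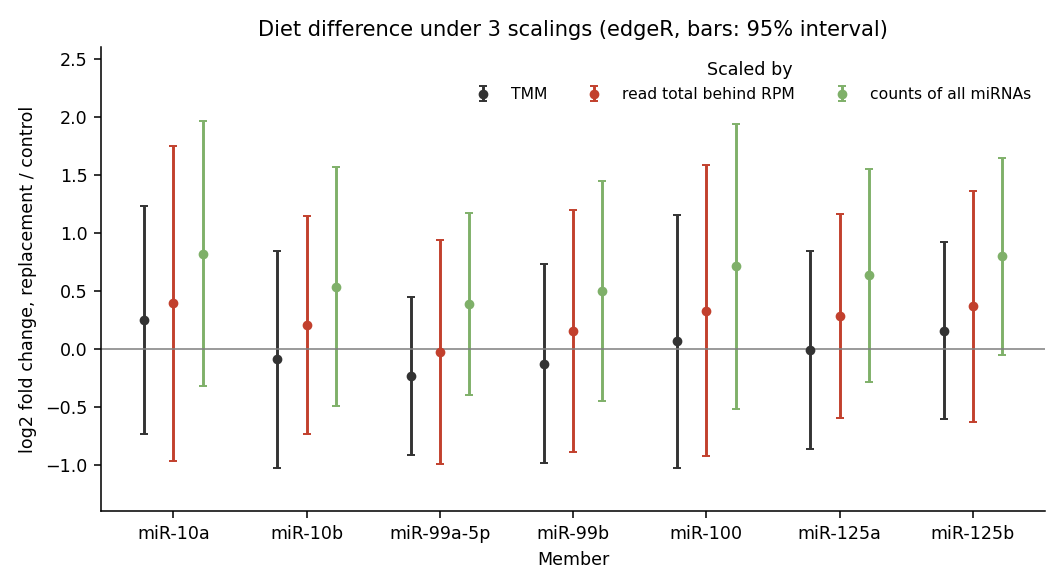
Points give the log2 fold change of each member between the replacement and the control diet from edgeR, with 95% intervals, under TMM (black), the read total behind RPM (red) and the counts of all miRNAs alone (green). With TMM the points lie between −0.23 and 0.25, with the counts of all miRNAs alone they lie between 0.39 and 0.82, and every interval includes 0.

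The ratios within a seed group do not depend on any total. The ratio of miR-10b to miR-10a was 3.85, 1.61 and 5.47 with the control diet and 1.97, 3.16 and 2.77 with the replacement diet. The ratio of miR-99a-5p to miR-100 was 4.65, 6.25 and 4.92 with the control diet and 4.81, 2.83 and 6.75 with the replacement diet. The extremes of the first were both in control cows, 2 and 3, and those of the second were both in replacement cows, 2 and 3. The ratio of miR-99a-5p to miR-99b was 2.74, 3.73 and 2.68 with the control diet and 2.496, 2.61 and 3.34 with the replacement diet. The ratio of miR-125a to miR-125b was 3.43, 1.87 and 2.82 with the control diet and 2.33, 2.65 and 2.34 with the replacement diet. All 4 ratios were above 1 in 6 of 6 cows, and for 0 of the 4 were the diets without overlap, beside 8.12% of the ratios of all 3486 pairs.

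On the log2 scale the mean ratio of miR-10b to miR-10a was 1.69 ± 0.91 (SD, n = 3) in the control and 1.37 ± 0.35 (SD, n = 3) in the replacement cows, a difference of −0.32 (two-sided exact permutation p = 0.6, adjusted p = 1). The differences were −0.21 for miR-99a-5p to miR-100 (exact permutation p = 0.8), −0.11 for miR-99a-5p to miR-99b (exact permutation p = 0.5) and −0.11 for miR-125a to miR-125b (exact permutation p = 0.7). Each adjusted p over the ratios of all 3486 pairs was 1, and with 3 cows against 3 the smallest possible exact permutation p is 0.1. Each of the 4 differences changed sign when 1 cow was left out: control cow 3 for miR-10b to miR-10a (0.056), replacement cow 2 for miR-99a-5p to miR-100 (0.12), control cow 2 for miR-99a-5p to miR-99b (0.043) and control cow 1 for miR-125a to miR-125b (0.084).

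**Figure D5:**
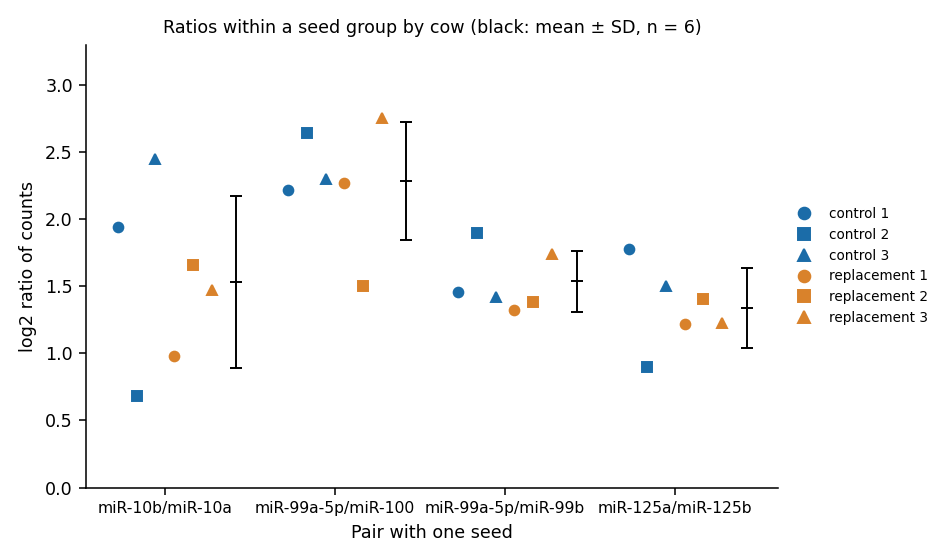
Each point is the log2 ratio of counts of 2 members with one seed in 1 cow, coloured by diet and shaped by cow number, and black bars give the mean ± SD of 6 cows. The points of the diets overlap in each of the 4 ratios, and miR-10b to miR-10a has the widest range, from 0.68 in control cow 2 to 2.45 in control cow 3.

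Markers of the cells that milk can hold were summed in each cow as background to these values. The stroma and vessel list, with 9 of 10 miRNAs in the table, held 1.60%, 1.09% and 1.93% with the control diet and 0.850%, 1.52% and 1.57% with the replacement diet, and miR-126-3p was its most abundant member with 0.530% ± 0.151 (SD, n = 6). Like the family and the red blood cell list, this list was lowest as a share in replacement cow 1 and control cow 2. As RPM it was 112 in replacement cow 1 and 140.3 in control cow 2, the highest of the 6 cows, and lowest in control cow 1 with 85.9. In this list miR-145, miR-199a-5p, miR-214 and miR-195 had 0 counts in at least 1 cow.

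The red blood cell list, with 7 of 8 in the table, held 10.9%, 7.21% and 20.1% with the control diet and 6.52%, 9.51% and 10.9% with the replacement diet, led by miR-486, and miR-16a and miR-16b had 0 counts in at least 1 cow. As RPM it was 588, 923 and 990.4 with the control diet and 863, 755 and 603 with the replacement diet, so control cow 3 was the highest on both scales, but on RPM control cow 2 was close to it. The leukocyte list, with 8 of 8, held 2.19%, 2.88% and 2.81%, and then 1.84%, 2.02% and 3.07%, led by miR-150, and miR-142-3p had 0 counts in at least 1 cow. The mammary epithelium list, with 10 of 11, held 1.09%, 0.859% and 0.981%, and then 0.846%, 0.459% and 0.767%, led by miR-148a. In it miR-200a, miR-200b, miR-200c, miR-141, miR-429 and miR-96 had 0 counts in at least 1 cow. As RPM the leukocyte list had 118, 369 and 138 with the control diet and 243, 160.5 and 169 with the replacement diet. The mammary epithelium list had 58.8, 110.1 and 48.3, and then 111.9, 36.4 and 42.3. On this scale control cow 2 and replacement cow 1 were the highest for both lists. Of the 27 miRNAs of these 4 lists that edgeR tested, 0 had an adjusted p under 0.05, beside 0% of the 227, 1 had an unadjusted p under 0.05, beside 3.52%, and DESeq2 called 0, beside 1.79% of its 390. The part of these cell types in the levels of the family was not tested, and fewer cells of a type and less RNA per cell cannot be told apart.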

How the data were processed

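Milk EV small RNA of 6 cows was sequenced, and diets came from the sample labels. The authors trimmed reads with cutadapt 1.14, aligned them to the cow genome (ARS-UCD1.2 per the labels) and annotated known and predicted miRNAs. The count table, as the authors deposited it, holds raw reads per mature miRNA. The RPM table deposited by the authors, under the name TPM, holds the same counts divided by 1 read total per cow, with no length term. Their own diet comparison (fold changes and p-values) was not used.

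Shares were taken over the counts of all 276 known miRNAs, at 61156 to 176919 such counts per cow, where 3 counts are 0.0017% to 0.0049%. Diets were compared by edgeR 4.0.16 with TMM and its default count filter in R 4.3.3. DESeq2 1.42.0 was an alternative. Pairs and ratios used exact two-sided permutation tests. Scripts ran in Python 3.11.15 with numpy 2.4.6, pandas 2.3.3 and scipy 1.17.1. The edgeR test and the test of pair correlations were tried on simulated data, and DESeq2 and the test of ratios were not.

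Named miRNAs are the members, their let-7 partners, miR-196a and miR-196b, any miRNA with a member seed, the leading miRNAs of the marker lists, and the 5 known miRNAs most and the 5 least like the summed member share. Marker miRNAs at 0 counts are named too. Members and lists were chosen with earlier results of these data known. Alternatives were other normalizations, tools, filters and totals, a replicate block and each cow left out in turn. Those on RPM, on the overlap of diets, on the spread of ratios, on single member shares with 1 cow left out and without the 2 cows with the most known counts were chosen after seeing the data.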

Additional observations from a re-analysis of the deposited data

Results flagged for a closer look

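Groups of 3 were not tested, so the 6 cows were treated as 1 group, and 38 values per cow were examined for a cow that stood far from the others: member levels, seed groups, ratios, let-7 partners, marker lists and depth. In 1 of the 38, a single cow lay farther from its neighbour than 0.625 of the whole range. It was the summed share of the red blood cell list in control cow 3, 20.1%, with the next cow at 10.9%. As RPM the list had 990.4 in control cow 3 and 923 in control cow 2, so this cow did not lie apart on that scale. Control cow 3 also had the lowest miR-10a share, 0.306%, and the highest ratio of miR-10b to miR-10a, 5.47, and a link between these values was not tested. Chance alone gives such a flag in about 1 in 20 values, so 1 of 38 is no more than chance gives.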

How the results depend on the processing

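With all miRNAs as the total, the shares were 0.546% for miR-10, 0.889% for miR-99/100, 0.723% for miR-125 and 2.16% for the 7 members. The number of miRNAs called between diets, 0 with edgeR, was 7 with DESeq2, 15 with no filter, 2 without the 2 cows with the most known counts and 0 to 1 with 1 cow left out, and 0 members were called under any of these. Where no cause is named, the cause was not tested.

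The diet difference (log2) changed sign as follows. The median of all miRNAs tested, 0.03 with TMM, was 0.17 with RLE size factors, 0.63 with library size alone and 0.21 with the read total behind RPM, so changes of sign under these scalings went with a shift of all miRNAs. Over all miRNAs with a fold change, the median was −0.22 with DESeq2 and −0.26 with no filter, which took in other sets of miRNAs. Among known miRNAs alone these medians were −0.0062 and −0.079. With RLE size factors it was 0.023 for miR-10b and 0.11 for miR-125a. With library size alone it was 0.54 for miR-10b, 0.39 for miR-99a-5p, 0.50 for miR-99b and 0.64 for miR-125a. For miR-125a it was 0.084 with DESeq2 and 0.052 with no filter. For miR-100 it was −0.0014 with known miRNAs only. With the read total behind RPM, chosen after seeing the data, it was 0.21 for miR-10b, 0.15 for miR-99b and 0.29 for miR-125a. Without the 2 cows, also chosen after seeing the data, it was −0.013 for miR-100. With 1 cow left out it ran from −0.084 to 0.42 for miR-10a, −0.32 to 0.34 for miR-10b, −0.24 to 0.10 for miR-99b, −0.40 to 0.33 for miR-100 and −0.20 to 0.28 for miR-125a.

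With the cow number as a replicate block, the difference was −0.022 for miR-100 and 0.047 for miR-125a, and 0 miRNAs were called. Cows of the same number had correlations of their deviations from the diet means of −0.19, −0.13 and 0.40 over 84 miRNAs, so the numbers were not taken as pairs.

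The differences of the ratios ran, with 1 cow left out, from −0.83 to 0.056 for miR-10b to miR-10a, −0.50 to 0.12 for miR-99a-5p to miR-100, −0.24 to 0.043 for miR-99a-5p to miR-99b and −0.35 to 0.084 for miR-125a to miR-125b.

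The median r of the member pairs was 0.40 with TMM, 0.63 on log2 RPM, 0.31 without the 2 cows and 0.69 to 0.88 with 1 cow left out. Pairs with an exact permutation p under 0.05 numbered 1, 4, 1 and 4 to 7 of 21, beside 243, 584, 75 and 94 to 169 of all 3486 pairs with a positive r. With 4 cows the smallest possible exact permutation p is 0.042, so for the third of these numbers only a pair at that smallest p could be counted. With TMM, r was −0.080 for miR-10a and miR-10b, −0.064 for miR-10a and miR-99b, −0.23 for miR-10a and miR-125a, −0.10 for miR-10a and miR-125b, −0.40 for miR-99a-5p and miR-125b, −0.079 for let-7c and miR-125b, −0.32 for miR-100 and let-7a-5p, and −0.65 for let-7a-5p and miR-125b. Without the 2 cows, r was −0.074 for miR-10a and miR-99b, −0.31 for miR-10b and miR-125b, −0.14 for miR-99a-5p and miR-100, −0.15 for miR-99a-5p and miR-125b, −0.78 for miR-99b and miR-125b, −0.85 for miR-100 and miR-125b, −0.31 for miR-125a and miR-125b, and −0.76 for miR-100 and let-7a-5p. With 1 cow left out, r ran from −0.16 to 0.83 for miR-10a and miR-99b, −0.034 to 0.52 for miR-10a and miR-100, and −0.022 to 0.63 for miR-100 and let-7a-5p. The 42 member shares with 1 cow left out, chosen after seeing the data, moved by less than 1 SD.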
